A study of Mus musculus with 12 samples.

Results

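Differentiating neurons build a cytoskeleton that other cells of the embryo largely lack, and the genes for its parts are used to follow neurons as they leave the cell cycle and extend axons. Neurofilament proteins give the axon its calibre, class III beta-tubulin, stathmins and doublecortin form and regulate its microtubules, GAP-43 sits in the growth cone, and the neuronal Elavl proteins bind and stabilise transcripts. In the inner ear these cells are the neuroblasts that delaminate from the otic vesicle to found the cochleovestibular ganglion. The 10 genes described here are Nefl, Nefm, Stmn2, Stmn4, Tubb3, Dcx, Gap43, Elavl2, Elavl3 and Elavl4, a set named for its place in this programme, with earlier results of these data known, out of 18193 genes on the array. Every probe set listed with 1 of them was taken, which gave 23 of 45101 probe sets on the array. Nefl and Stmn2 have 2 probe sets each, Dcx has 4, Elavl2 has 5, Elavl3 and Elavl4 have 3 each, and the other genes have 1.

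The values come from 12 arrays of mouse RNA, 8 of the otic vesicle, from which the inner ear and its neurons arise, and 4 of 2B1, a cell line of otic origin. The vesicle groups are Dlx5-null and wild-type at E10.5, and Dlx5-null and wild-type at E10, named for the embryonic day, with 2 arrays each. Dlx5 encodes a homeobox transcription factor of the early otic epithelium. Each vesicle array holds a separate pool of 4 to 8 vesicles that were dissected and freed of closely attached mesenchyme with dispase, and neither the strain nor the allele is given in the labels. The cell line groups are 2B1 cells transiently transfected with Dlx5 and GFP and 2B1 cells transfected with the empty vector, with 2 independent cultures each. They were grown at 32 °C with gamma-interferon and kept for 4 days at 37 °C without it, and the share of cells that took up the vector is not given. All values are log2 expression values, so a difference of 1 is a 2-fold difference, and brightness of different probe sets is not comparable.

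The Dlx5 probe set was higher in the arrays labelled Dlx5-null, with 7.97 and 7.97 in labelled-null against 6.12 and 6.11 in wild-type vesicles at E10.5, and 7.27 and 8.02 in labelled-null against 6.20 and 6.30 in wild-type vesicles at E10. Where its probes lie relative to the deletion was not examined, so groups are named by their labels and every direction is that of the arrays as labelled. Over the 8 vesicle arrays the mean log2 value of 16 otic epithelium genes was 7.63 to 8.34, and that of 19 hindbrain and neural tube genes was 4.90 to 5.17. These are levels of different probe sets, so their order does not place the tissue. The level below which probe sets were left out was a mean of 4.65 in vesicles. Of the 23 probe sets, 19 passed it in vesicles, and 12 passed that of the cell line arrays (a mean of 4.36). The 4 that did not pass in vesicles belong to Dcx (1418141_at, 1448974_at) and Elavl2 (1421881_a_at, 1454454_at), so each of the 10 genes kept at least 1. A probe set that passed only because it was bright in some arrays had to differ. This holds for 3 of the 19, Nefl in 1454672_at, Elavl3 in 1455484_at and Elavl4 in 1452894_at, whose means lay under the level in both genotypes at E10 and above it at E10.5, and the counts below are counts of those 19.

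Promoter windows were available for 5 of the 10 genes in a RefSeq table of the GRCm38.p6 assembly, each running from 250 bases before to 50 bases after a transcription start. They were searched on both strands for TAATTA and TAATTG, cores that homeodomain proteins bind, and for CAGATG and CAGCTG, forms of the E-box that proneural factors bind. Over the 32851 windows of the table, 5.29% held TAATTA, 8% TAATTG, 17.2% CAGATG and 16.3% CAGCTG. The windows below show the Elavl family, whose members moved apart in these arrays, and Dcx, the member with the lowest adjusted p between genotypes. For each gene the window with the most of these motifs is shown, the one farthest upstream where several had as many, 5′ to 3′ on the strand of the gene, with motifs in capitals.
Elavl2, chr4:91399935-91400234 (-): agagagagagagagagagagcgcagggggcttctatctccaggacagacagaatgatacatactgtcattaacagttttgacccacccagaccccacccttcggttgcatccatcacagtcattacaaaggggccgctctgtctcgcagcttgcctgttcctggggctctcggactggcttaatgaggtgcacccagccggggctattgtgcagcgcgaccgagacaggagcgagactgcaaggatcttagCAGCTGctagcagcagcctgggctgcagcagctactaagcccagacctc
Elavl3, chr9:22051974-22052273 (-): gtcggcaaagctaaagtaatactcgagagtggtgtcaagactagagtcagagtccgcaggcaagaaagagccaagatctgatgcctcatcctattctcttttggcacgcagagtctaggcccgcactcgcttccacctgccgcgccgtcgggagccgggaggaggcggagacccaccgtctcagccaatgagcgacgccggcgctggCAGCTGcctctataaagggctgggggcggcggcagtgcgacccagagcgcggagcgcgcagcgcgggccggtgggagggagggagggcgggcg
Elavl4, chr4:110287478-110287777 (-): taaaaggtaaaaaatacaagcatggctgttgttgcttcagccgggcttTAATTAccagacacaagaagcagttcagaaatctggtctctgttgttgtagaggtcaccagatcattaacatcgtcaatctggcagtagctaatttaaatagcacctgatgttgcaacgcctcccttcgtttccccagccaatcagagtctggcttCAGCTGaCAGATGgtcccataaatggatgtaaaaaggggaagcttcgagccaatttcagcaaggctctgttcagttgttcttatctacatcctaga
Dcx, chrX:143933170-143933469 (-): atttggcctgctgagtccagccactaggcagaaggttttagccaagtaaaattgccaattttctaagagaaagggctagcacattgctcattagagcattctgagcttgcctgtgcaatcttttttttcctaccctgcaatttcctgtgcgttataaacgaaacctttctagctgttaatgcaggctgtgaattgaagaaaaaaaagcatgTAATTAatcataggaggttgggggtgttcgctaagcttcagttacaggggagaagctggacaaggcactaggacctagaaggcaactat
The Elavl2 window held CAGCTG at base 252, and 3 of the 6 windows of this gene held any of the motifs. The Elavl3 window held CAGCTG at base 208. The Elavl4 window held TAATTA at base 49, CAGCTG at base 205 and CAGATG at base 212, the E-boxes separated by a single base. The Dcx window held TAATTA at base 212, and the single window of Tubb3 held none of them. A match is a run of letters and was not tested as a binding site.

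Nefl, Stmn4, Stmn2 and Nefm had the largest rises of the 10 genes with stage. Stage differences over both genotypes, given for each gene here and below, come from a fit added after the values were seen. Nefl, the light chain gene (1426255_at), had 10.76 and 10.71 in labelled-null and 10.41 and 10.51 in wild-type vesicles at E10.5, against 5.88 and 6.37 in labelled-null and 5.10 and 7.50 in wild-type vesicles at E10. All 4 arrays at E10.5 lay above all 4 at E10, and the 2 wild-type pools at E10 lay far apart. Over both genotypes Nefl was 20.9-fold higher at E10.5 (log2 difference 4.38, SE 0.43, 4 arrays a stage, limma adjusted p = 0.00169), the largest rise of the 26207 probe sets tested. Its second, dimmer probe set (1454672_at) had 6.57 and 6.48 in labelled-null and 6.06 and 6.23 in wild-type vesicles at E10.5, against 4.02 and 4.21 in labelled-null and 4.44 and 4.78 in wild-type vesicles at E10. It rose by 1.97 (SE 0.19, limma adjusted p = 0.00169). Nefm, the medium chain gene and the direct neighbour of Nefl on chromosome 14, had 10.69 and 10.38 in labelled-null and 9.80 and 9.75 in wild-type vesicles at E10.5, against 7.19 and 7.05 in labelled-null and 5.81 and 7.99 in wild-type vesicles at E10. It rose by 3.15, or 8.85-fold (SE 0.39, limma adjusted p = 0.00364). In bulk tissue such as these pools, more neurons and more RNA per neuron cannot be told apart.

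Among the microtubule genes, Stmn4, which encodes a neural stathmin, had 10.67 and 10.60 in labelled-null and 10.49 and 10.43 in wild-type vesicles at E10.5, against 6.69 and 7.02 in labelled-null and 5.86 and 7.51 in wild-type vesicles at E10. It rose by 3.78, or 13.7-fold (SE 0.30, limma adjusted p = 8.69e-04), second of all probe sets tested. Stmn2, the gene for the growth-cone stathmin SCG10, had 10.18 and 10.07 in labelled-null and 9.72 and 9.78 in wild-type vesicles at E10.5, against 6.94 and 6.13 in labelled-null and 6.24 and 7.53 in wild-type vesicles at E10 (1423280_at). Both of its probe sets separated the stages, with rises of 3.23 (SE 0.30, limma adjusted p = 0.00164) and, for 1423281_at, 3.01 (SE 0.24, limma adjusted p = 0.00108). Tubb3, the class III beta-tubulin gene, was already bright at E10 and had 11.05 and 11.15 in labelled-null and 11.17 and 11.12 in wild-type vesicles at E10.5, against 8.99 and 9.48 in labelled-null and 7.98 and 9.33 in wild-type vesicles at E10. It rose by 2.18, or 4.52-fold (SE 0.28, limma adjusted p = 0.00392), and reached nearly the same value in all 4 arrays at E10.5.

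Dcx, whose product doublecortin stabilises microtubules in migrating neuroblasts, rose less. Its brightest probe set (1418139_at) had 6.73 and 6.54 in labelled-null and 6.00 and 6.05 in wild-type vesicles at E10.5, against 5.83 and 5.99 in labelled-null and 5.30 and 5.15 in wild-type vesicles at E10, a rise of 0.76 over both genotypes (SE 0.11, limma adjusted p = 0.00526). The probe sets of this gene did not behave alike: 1418140_at gave 0.25 (SE 0.21, limma adjusted p = 0.457), and the dim 1418141_at and 1448974_at, which were not tested, gave -0.07 and -0.24. Gap43, the growth cone gene, had 9.07 and 9.18 in labelled-null and 9.51 and 9.50 in wild-type vesicles at E10.5, against 7.56 and 7.84 in labelled-null and 8.16 and 8.77 in wild-type vesicles at E10. It rose by 1.23, or 2.35-fold (SE 0.16, limma adjusted p = 0.00445), with all arrays at E10.5 above all at E10.

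**Figure D1:**
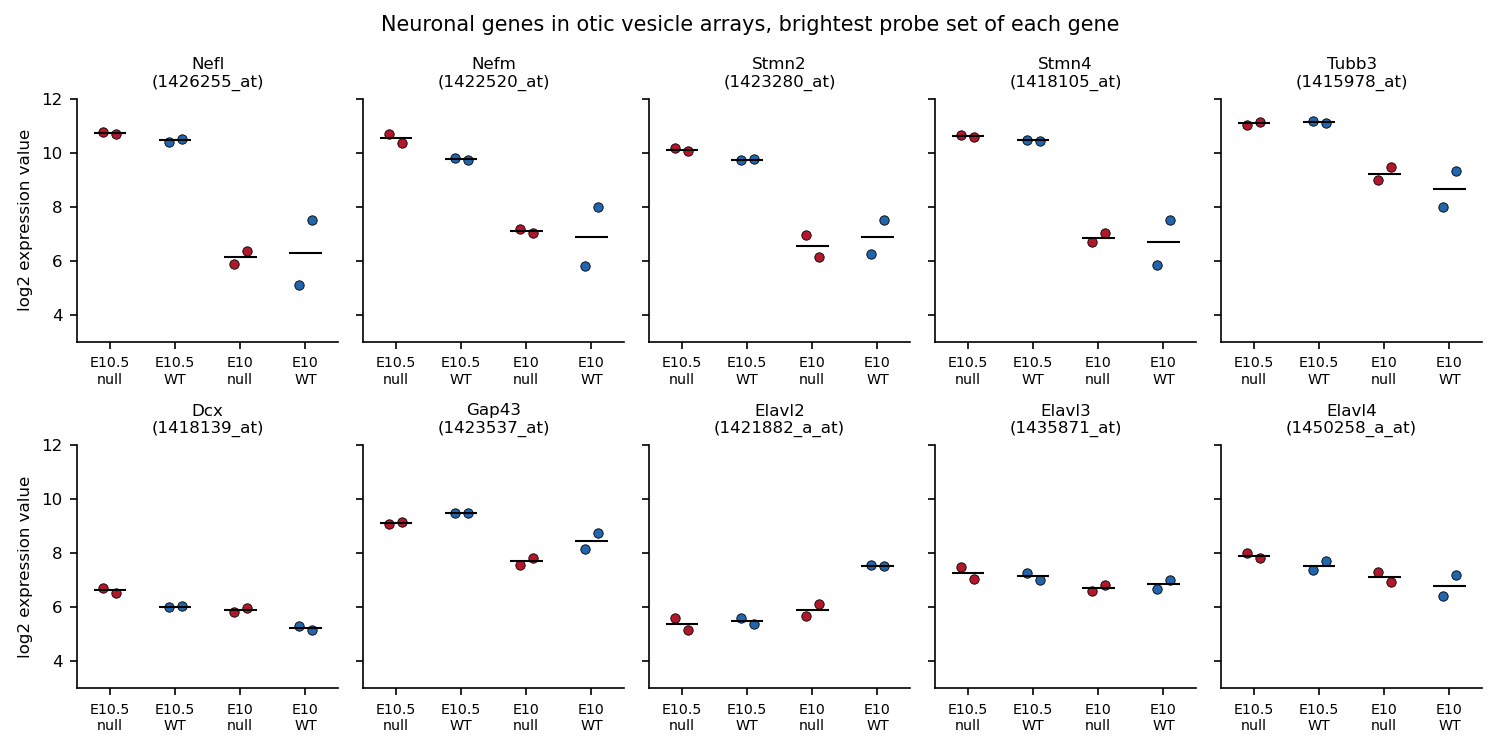
Log2 expression value of the brightest probe set of each of the 10 genes in the 8 vesicle arrays (y axis, same scale in each panel); points are arrays, bars are means of 2 arrays, red is labelled Dlx5-null and blue is wild-type. Nefl, Nefm, Stmn2, Stmn4 and Tubb3 stand far higher at E10.5 than at E10, where the wild-type pools differ from each other, and Elavl2 is high in the wild-type pools at E10 only, at 7.57 and 7.53.

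The 3 Elavl genes did not move together. Elavl4 (HuD; 1450258_a_at) had 8.03 and 7.81 in labelled-null and 7.39 and 7.70 in wild-type vesicles at E10.5, against 7.30 and 6.93 in labelled-null and 6.41 and 7.18 in wild-type vesicles at E10. It rose by 0.78 (SE 0.18, limma adjusted p = 0.0288), its probe set 1428741_at rose by 0.57 (SE 0.14, limma adjusted p = 0.0338), and 1452894_at gave 0.66 without passing (SE 0.33, limma adjusted p = 0.216). Elavl3 (HuC) rose by 1.20 in 1455484_at (SE 0.22, limma adjusted p = 0.0125) and by 0.49 in 1452524_a_at (SE 0.13, limma adjusted p = 0.0439), while its brightest probe set 1435871_at, at 7.51 and 7.06 in labelled-null and 7.29 and 7.00 in wild-type vesicles at E10.5 against 6.61 and 6.84 in labelled-null and 6.68 and 7.02 in wild-type vesicles at E10, gave 0.43 (SE 0.15, limma adjusted p = 0.104). Elavl2 (HuB), which is expressed early in neuroblasts, went the other way. Its brightest probe set (1421882_a_at) had 5.60 and 5.16 in labelled-null and 5.61 and 5.37 in wild-type vesicles at E10.5, against 5.67 and 6.14 in labelled-null and 7.57 and 7.53 in wild-type vesicles at E10, and fell by 1.29 over both genotypes (SE 0.30, limma adjusted p = 0.0264). All 5 of its probe sets had a negative stage difference, from -1.29 to -0.45, and the others that were tested, 1421883_at (-0.80, limma adjusted p = 0.0611) and 1433052_at (-0.45, limma adjusted p = 0.334), did not pass.

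**Figure D2:**
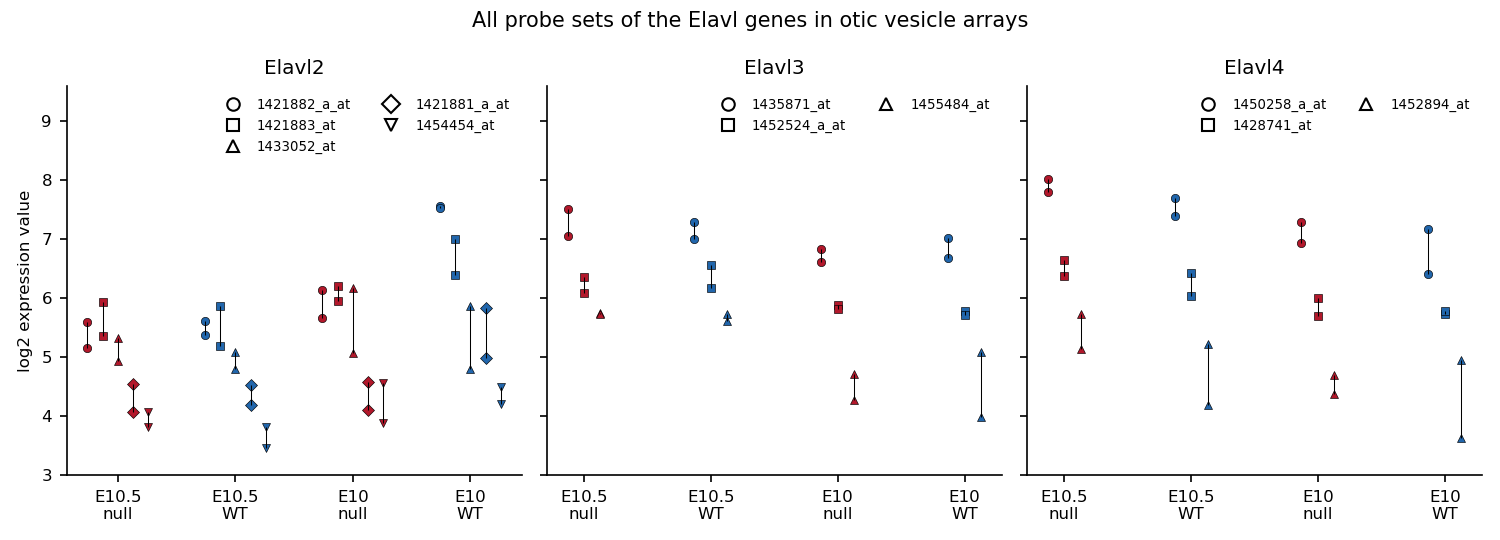
Log2 expression value of every probe set of Elavl2, Elavl3 and Elavl4 (y axis) in the 8 vesicle arrays by group; symbols stand for probe sets, a line joins the 2 arrays of a group, and red is labelled Dlx5-null and blue wild-type. The circles of Elavl2 (1421882_a_at) stand highest in the wild-type pools at E10, at 7.57 and 7.53, and the Elavl3 and Elavl4 circles are higher at E10.5 than at E10 on average.

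Over both genotypes 14 of the 19 tested probe sets passed (limma, stage with genotype as a covariate), against 12.1% of all probe sets tested. Of these, 13 in 9 genes rose, against 6.47% of all probe sets, and the 1 that fell was Elavl2, against 5.59%. The median difference of the 19 was 0.78, against -0.00 over all probe sets. This fit was added after the values were seen. Leaving aside the 3 probe sets that E10.5 alone carried past the filter, 12 of the other 16 passed. The calls of Elavl2 and Elavl4 were each lost in 5 of the 8 runs with 1 array left out, where Elavl2 gave -1.54 to -1.09 and Elavl4 0.63 to 0.94. For Elavl2 these were the runs without any one wild-type array or labelled-null replicate 2 at E10.5, and for Elavl4 those without any one array at E10.5 or labelled-null replicate 1 at E10. The count was 9 without wild-type replicate 1 at E10.5 and 10 to 14 without any other single array. The level of Eif2s3y, a Y-linked gene, which follows the mix of male and female embryos in a pool, differed between the stages as well, with 4.82 and 5.04 in labelled-null and 3.21 and 3.45 in wild-type vesicles at E10.5, against 6.50 and 6.17 in labelled-null and 7.04 and 3.96 in wild-type vesicles at E10. With that level as a covariate 9 of the 19 passed, and Nefl rose by 3.13 (limma adjusted p = 0.0118). The calls of Gap43 (0.94, limma adjusted p = 0.0577) and Elavl2 (-1.12, limma adjusted p = 0.210) were among those lost.

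Within wild-type vesicles 7 of the 19 passed in limma, against 1.47% of all probe sets. The rises were in Nefl, Stmn2, Stmn4 and Tubb3, and the only fall was in Elavl2, by 2.06 (SE 0.23, limma adjusted p = 0.0221). Nefl rose by 4.16 (SE 0.64, limma adjusted p = 0.0356), again the largest rise of all probe sets tested in that comparison. Within labelled-null vesicles 3 passed, against 0.0763% of all probe sets: Nefl in 1454672_at by 2.41 (SE 0.18, limma adjusted p = 0.0137), Stmn2 in 1423280_at by 3.59 (SE 0.41, limma adjusted p = 0.0456) and Stmn4 by 3.78 (SE 0.45, limma adjusted p = 0.0497). All 3 had passed in wild-type vesicles too, and the Nefl probe set is one that E10.5 alone carried past the filter. Nefm, Dcx, Gap43, Elavl3 and Elavl4 passed in neither genotype alone. The brightest Nefl probe set had a difference of 4.61 in labelled-null vesicles (SE 0.64, limma adjusted p = 0.0674), the largest rise of all probe sets tested there although it did not pass. Nefm had 3.41 (SE 0.58, limma adjusted p = 0.0800). These counts depended on single arrays. In wild-type vesicles the count was 2 without wild-type replicate 1 at E10 and 0 without any one array at E10.5; in labelled-null vesicles it was 0 without labelled-null replicate 1 at E10 or any one array at E10.5, and 8 without either wild-type array at E10.

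The stage differences themselves were not shown to differ between genotypes: 0 of 19 probe sets passed the genotype by stage interaction in limma, against 0% of all probe sets, and 2 had an unadjusted p under 0.05, against 2.06%. These were Elavl2, with a difference of 1.53 between its stage effects in labelled-null and in wild-type vesicles (SE 0.32, limma adjusted p = 1.00), and Nefl in 1454672_at, with 0.88 (SE 0.26, limma adjusted p = 1.00). For Elavl2 the stage difference was -0.53 (SE 0.23) in labelled-null and -2.06 (SE 0.23) in wild-type vesicles.

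**Figure D3:**
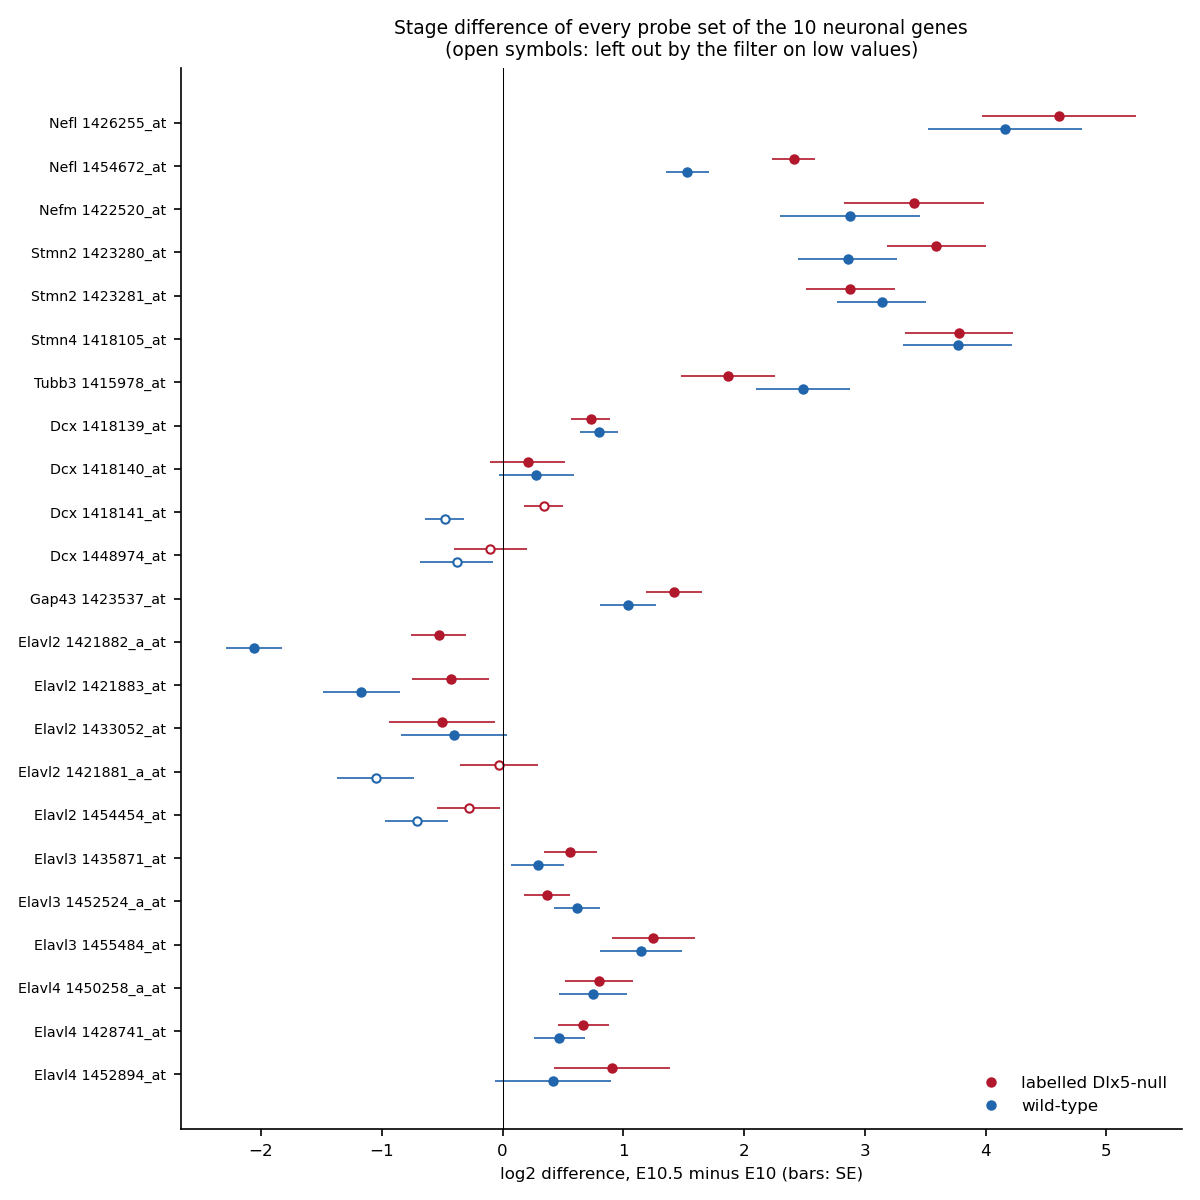
Log2 difference of E10.5 minus E10 (x axis, bars are SE from the 4-group limma fit) of each of the 23 probe sets, in labelled Dlx5-null (red) and wild-type (blue) vesicles; open symbols did not pass the filter on low values and were not tested. Nefl, Nefm, Stmn2, Stmn4 and Tubb3 lie far to the right of 0 in both genotypes, and Elavl2 lies left of it, at -2.06 in wild-type and -0.53 in labelled-null vesicles for 1421882_a_at.

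At E10, members that differed upwards by more than 1 between 2 pools of a group were found in wild-type vesicles only. Between the 2 wild-type pools at E10 the members differed by a median of 0.61 (replicate 2 minus replicate 1), with 14 of 19 higher in replicate 2, and 7 differed by more than 1 upwards, against 3.45% of all probe sets. Nefl differed by 2.40 between them. Between the 2 labelled-null pools at E10 the median was 0.16 and 0 members differed upwards by more than 1, against 3.59% of all probe sets. Opposite signs cancel in such a median: in these pools the probe sets of Stmn2 differed by -0.81 and -0.80, and Nefl in 1426255_at by 0.49. Over all probe sets tested the SD of the difference was alike, at 0.49 in labelled-null and 0.51 in wild-type pools. Downwards by more than 1 went 1 member in the labelled-null pools, Elavl2 in 1433052_at at -1.11, against 0.66% of all probe sets, and 2 in the wild-type pools, Dcx in 1418140_at at -1.08 and Elavl2 in 1433052_at at -1.07, against 0.74%. At E10.5 the medians were -0.11 in labelled-null and -0.05 in wild-type vesicles. There 0 members in labelled-null and 1 in wild-type vesicles differed by more than 1, Elavl4 in 1452894_at at 1.03, against 0.0153% and 0.0229% of all probe sets upwards. The mean log2 value of other lists differed between the E10 pools too: the otic epithelium list was at 7.63 and 8.10 in labelled-null and 7.67 and 8.20 in wild-type pools, and the blood list at 7.26 and 7.88 in labelled-null and 7.29 and 7.88 in wild-type pools. Without both E10 arrays numbered 1, which were the lower ones in both lists, 13 of 19 members still passed for stage over both genotypes, and Nefl rose by 3.66 (limma adjusted p = 0.00202).

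Related neuronal genes rose in part. Of 24 tested genes of the neuronal cytoskeleton outside the 10, 7 rose and 1 fell with stage over both genotypes, against 7.72% and 5.42% of all genes, with a median of 0.42 against 0.03. The rises were led by Stmn3, a further stathmin (1.48, SE 0.16), Crmp1, a collapsin response mediator (1.19, SE 0.26), the neurofilament partner internexin, Ina (1.02, SE 0.10), and Dpysl4 (0.99, SE 0.27), with limma adjusted p of 0.00249, 0.0222, 0.00185 and 0.0432. Of 13 genes of vesicles and synapses 4 rose, with synaptophysin, Syp, at 2.13 (SE 0.29, limma adjusted p = 0.00492), and the others were Syt11, Gng3 and Scg3. Of 11 adhesion and axon surface genes 3 rose, L1cam (0.93, SE 0.14), Cntn2 and Ret, and the netrin receptor gene Dcc fell by 1.03 (SE 0.16, limma adjusted p = 0.00647). A list of 14 genes held RNA-binding and splicing regulators, not all of them neuronal, together with Rest. Of these 1 rose, Celf5 (0.65, SE 0.15). The 1 that fell was Rest, which encodes a transcriptional repressor of neuronal genes outside neurons, by 0.54 (SE 0.15, limma adjusted p = 0.0495).

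Among 15 tested transcription factors of otic neurogenesis, 3 rose: Isl1 by 1.90 (SE 0.24), Pou4f1 by 1.23 (SE 0.17) and Nhlh1 by 0.83 (SE 0.12), with limma adjusted p of 0.00388, 0.00498 and 0.00617. Neurod1, a proneural factor of delaminating neuroblasts, fell by 0.76 (SE 0.21, limma adjusted p = 0.0462). Lists for other cells moved with stage as well. Of 9 blood genes 6 rose, led by Hba-x, an embryonic alpha-like globin (3.35, SE 0.46). The list's mean log2 value was 9.71 and 9.66 in labelled-null and 8.64 and 8.63 in wild-type vesicles at E10.5, against 7.26 and 7.88 in labelled-null and 7.29 and 7.88 in wild-type vesicles at E10. Of 17 periotic mesenchyme genes 5 rose, led by Lum (2.21, SE 0.28), and of 12 endothelium genes 4 rose, led by Tie1 (1.49, SE 0.16). Of 15 otic epithelium genes 3 rose and 2 fell, of 8 neural crest and glia genes 1 rose, and of 4 tested genes of epibranchial neurons 0 passed. Of 11 hindbrain and neural tube genes 0 rose and 1 fell, Pax7, and the list's mean stayed between 4.90 and 4.98 at E10.5, against 5.04 to 5.17 at E10. Of 11 genes of cycling cells 2 fell, Bub1 and Top2a. The part of these cells in the members' rise was not tested.

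The genes whose pattern over the 8 vesicle arrays was most like the mean of the 10 standardised members were Tgfb3 (r = 0.992), Mgrn1 (0.991), Wdr6 (0.990), Pde4dip (0.990), Cldn6 (0.987), Mef2b (0.984), Ntrk3, the neurotrophin-3 receptor gene (0.983), and Rbm42 (0.983). These are Pearson correlations over 8 arrays that fall into 2 stages, given as a description. Tgfb3 lay between 10.37 and 10.63 at E10.5, against 9.52 to 9.87 at E10.

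The genotype comparison asks which genes depend on Dlx5, and none of the 10 passed it. Over both stages 0 of 19 probe sets passed in limma, against 0.0153% of all probe sets, and 3 had an unadjusted p under 0.05, against 4.05%. The median difference was 0.05, against -0.01 over all probe sets. Dcx (1418139_at) had a difference of 0.65, or 1.57-fold (SE 0.11, 4 arrays a genotype, limma adjusted p = 0.191), with labelled-null arrays above wild-type arrays at both stages, by 0.61 at E10.5 and 0.69 at E10. Its other probe sets gave 0.15 (1418140_at, SE 0.21), 0.37 (1418141_at, not tested) and 0.17 (1448974_at, not tested). By stage, 1418141_at gave 0.77 at E10.5 and -0.04 at E10, and 1448974_at gave 0.32 and 0.03. Dcx lies on the X chromosome. Gap43 had a difference of -0.57 (SE 0.16, limma adjusted p = 0.813), with labelled-null arrays below wild-type arrays at both stages, by -0.38 at E10.5 and -0.77 at E10. With Eif2s3y as a covariate the differences were 0.61 for Dcx and -0.38 for Gap43.

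At E10, 0 of 19 probe sets passed between genotypes in limma, against 0% of all probe sets, and 4 had an unadjusted p under 0.05, against 3.29%. Of the 19, 2 had both labelled-null values above both wild-type values, against 8.28% of all probe sets, and 4 had them below, against 10.0%. The 2 were Dcx in 1418139_at and Elavl3 in 1452524_a_at, and the 4 were Gap43, 2 probe sets of Elavl2 and Nefl in 1454672_at, which differed by -0.50 at E10 and 0.38 at E10.5. Elavl2 had the lowest adjusted p, with a difference of -1.64 in 1421882_a_at (SE 0.23, 2 arrays a group, limma adjusted p = 0.274), which is 3.13-fold lower in labelled-null vesicles. The 2 labelled-null pools, at 5.67 and 6.14, did not overlap the wild-type pools, at 7.57 and 7.53. Its other probe sets at E10 gave -0.62 (1421883_at), -1.07 (1421881_a_at, not tested), -0.13 (1454454_at, not tested) and 0.29 (1433052_at), and 1421881_a_at also had both labelled-null values below both wild-type values. At E10.5 the brightest probe set gave -0.11 (SE 0.23) and the groups overlapped. The mean of the 5 probe sets differed by -0.63 at E10 and by 0.09 at E10.5.

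At E10.5, 0 of 19 passed in limma, against 0.00382% of all probe sets, and 1 had an unadjusted p under 0.05, Dcx in 1418139_at, against 2.82%. Of the 19, 9 had both labelled-null values above both wild-type values, against 17.8% of all probe sets, and 2 had them below, against 25.3%. The 9 were both probe sets of Nefl, Nefm, 1 of Stmn2, Stmn4, both tested probe sets of Dcx, 1 of Elavl3 and 1 of Elavl4, and probe sets of a gene share its RNA. Nefm had the largest difference of the 9 at 0.76 (SE 0.58, limma adjusted p = 0.999), number 40 by rise of the 26207 probe sets tested. Nefl in 1426255_at had 0.27 (SE 0.64, limma adjusted p = 0.999), number 1635. Gap43 and the dimmer probe set of Stmn2 were the 2 below, at -0.38 and -0.33. The SE of each probe set comes from all 4 groups, so it does not measure the spread at E10.5 alone. Replicate 2 minus replicate 1 of Nefm was 2.18 in wild-type pools at E10. At E10.5 it was -0.31 in labelled-null and -0.05 in wild-type pools. The blood list was higher in labelled-null vesicles at the same stage, by a median of 0.96 over 9 genes, and its part in these differences was not tested.

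**Figure D4:**
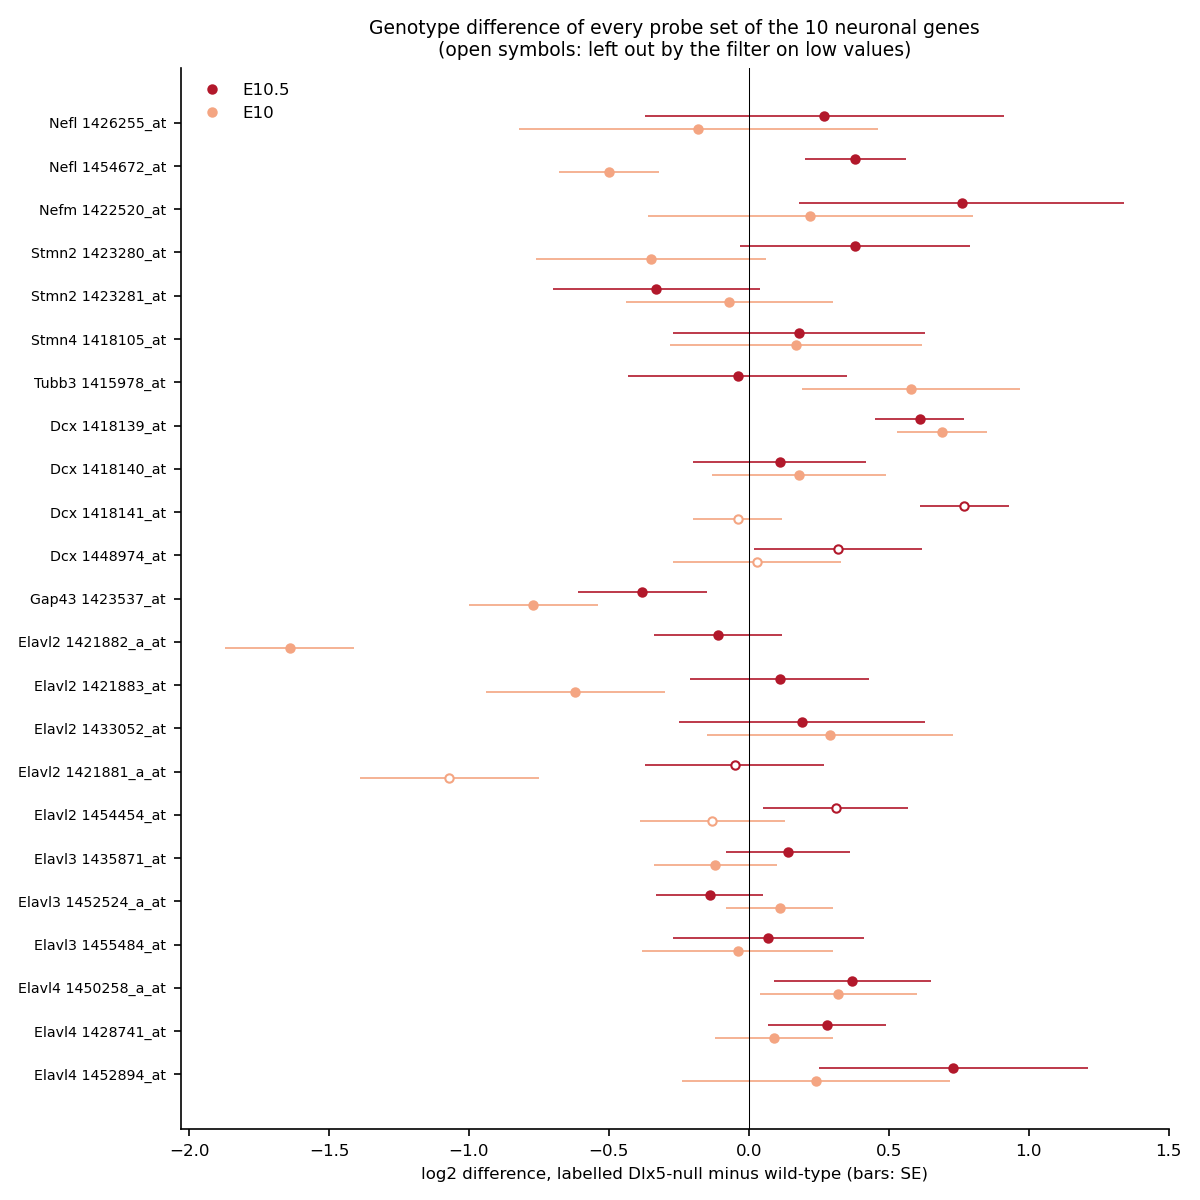
Log2 difference of labelled Dlx5-null minus wild-type (x axis, bars are SE from the 4-group limma fit) of each of the 23 probe sets, at E10.5 (dark red) and E10 (light red); open symbols did not pass the filter on low values and were not tested. Elavl2 in 1421882_a_at stands apart at E10 (-1.64), Dcx in 1418139_at is right of 0 and Gap43 left of 0 at both stages, and most others lie within their SE of 0 at 1 stage or more. The SE of a probe set is the same at both stages, since it comes from the spread within all groups of the fit.

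None of the related lists had a called gene between genotypes over both stages. Chl1, an adhesion gene of the L1 family, had the largest difference among them (-2.40, SE 0.27, limma adjusted p = 0.0514), followed in size by Slc4a1, which encodes an erythrocyte membrane transporter (0.94, SE 0.46, limma adjusted p = 0.999), Pax8 (-0.93, SE 0.16, limma adjusted p = 0.191) and Pou4f1 (0.92, SE 0.17, limma adjusted p = 0.229). The 24 other cytoskeleton genes had a median of 0.04, with 13 higher and 11 lower in labelled-null vesicles. The 15 otic neurogenesis factors had a median of 0.18, with 12 higher and 3 lower. The blood list had a median of 0.45, with 9 higher and 0 lower, and the periotic mesenchyme list a median of -0.19, with 2 higher and 15 lower. Over all genes tested the median was -0.00.

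In 2B1 cells, transfection with Dlx5 was compared with the empty vector, and 0 of the 12 probe sets tested passed in limma, against 0% of all 26191 probe sets tested there. Unadjusted, 3 had a p under 0.05, against 11.1% of all probe sets. Levels of the cell line are not compared with those of the vesicles. Nefl and Nefm lay at 3.18 to 3.86 in all 4 cultures, below the filter, and Stmn4 was bright in all of them, at 9.56 and 9.51 with Dlx5 and 9.19 and 9.54 with the empty vector. Gap43 had 7.16 and 7.27 in Dlx5-transfected cultures, against 6.04 and 6.48 in empty-vector cultures, which differed by 0.95 (SE 0.20, 2 cultures a group, limma adjusted p = 0.447). Tubb3 had 7.84 and 7.79 with Dlx5 and 6.73 and 7.45 with the empty vector (0.72, SE 0.25, limma adjusted p = 0.447). Elavl2 had 6.15 and 6.04 with Dlx5 and 4.70 and 5.90 with the empty vector (0.79, SE 0.35, limma adjusted p = 0.450), where the empty-vector cultures lay far apart. Of the 12, 4 had both Dlx5 values above both empty-vector values, against 27.5% of all probe sets: Gap43, Tubb3 and 2 probe sets of Elavl2. The reverse held for 2, against 19.1%, which were Dcx and 1 probe set of Stmn2. Dcx in 1418140_at had 4.80 and 4.59 with Dlx5 and 5.23 and 5.07 with the empty vector (-0.46, SE 0.17, limma adjusted p = 0.447). The Dlx5 probe set itself had 5.14 and 4.80 with Dlx5 and 4.66 and 4.79 with the empty vector.

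**Figure D5:**
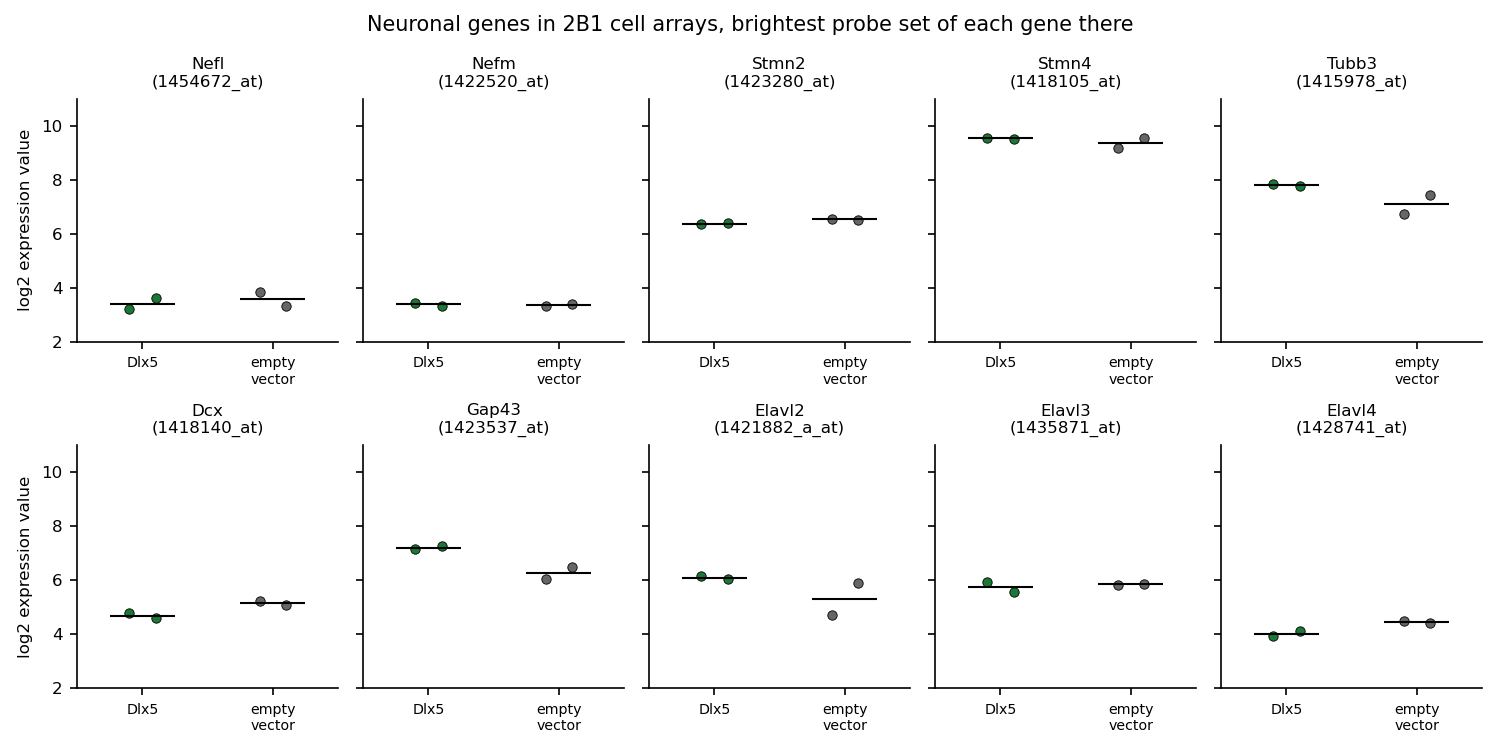
Log2 expression value of the probe set of each of the 10 genes that was brightest in 2B1 cells (y axis, same scale in each panel); points are cultures, bars are means of 2 cultures, green is Dlx5-transfected and grey is empty vector. Gap43, Tubb3 and Elavl2 are higher in both Dlx5 cultures than in either empty-vector culture, and Dcx, Stmn2 and Elavl4 (not tested) are lower. Of all probe sets tested there, 27.5% were separated upwards in this way and 19.1% downwards. Stmn4 is bright in all 4 cultures, and Nefl and Nefm lie below 4.

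The vesicle and cell line comparisons share no arrays, and the values of the 7 genes tested in both stand side by side here, labelled-null minus wild-type over both stages and Dlx5-transfected minus empty vector. Gap43 gave -0.57 in vesicles and 0.95 in cells. Elavl2 gave -0.88 in vesicles and 0.79 in cells. Its vesicle value came from E10 (-1.64, against -0.11 at E10.5) and was -0.27 as the mean of its probe sets, and its cell value ran between 0.20 and 1.40 with 1 culture left out and was 0.31 as the mean of its probe sets. Dcx in 1418140_at, the probe set tested in both, gave 0.15 in vesicles and -0.46 in cells. Tubb3 gave 0.27 and 0.72 in the same order, Stmn4 0.17 and 0.17, Stmn2 in 1423280_at 0.01 and -0.15, and Elavl3 in 1435871_at 0.01 and -0.09. None of these values passed the adjusted threshold in the fit of the groups alone, and their signs were not compared in a test.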

How the data were processed

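Each of the 12 samples was measured on 1 Affymetrix mouse array. The authors deposited log2 values for 45101 probe sets; the submitters' processing notes name RMA and Affymetrix Expression Console without versions. RMA compresses differences of dim probe sets. Array means lay between 6.10 and 6.11 in vesicles and between 5.76 and 5.82 in the cell line, so the sets appear to have been normalized separately. The spread of values within an array was not equal, with an SD of 2.32 to 2.47 in vesicles. It was lowest in the E10 arrays numbered 1, at 2.32 in wild-type and 2.33 in labelled-null vesicles. The part of this spread in the E10 and stage differences was not tested. Signal over background and scan batches were not examined, since scanner files were not used here. At most 2.78% of values were equal between any pair of arrays. The number of arrays, 2 a group, limits the precision, and groups and replicate numbers came from the sample titles.

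The platform annotation gave 1 gene for 34958 probe sets, several for 932 and none for 9211; 13 control probe sets were left out, leaving 34945 of 18193 genes. Symbols were updated through a RefSeq table of GRCm38.p6 (34754 by gene identifier, 1 by accession, 203 kept). Probe sets were tested singly with limma 3.58.1 in R 4.3.3 (lmFit, eBayes, Benjamini-Hochberg over all probe sets tested, threshold 0.05) after the lowest 25% by mean were left out. Genotype and stage over both levels of the other were fitted with the other as a covariate (5 residual degrees of freedom), the remaining vesicle contrasts from 4 group means (4), and 2B1 apart (2). The vesicle contrasts share arrays. Fits were checked on simulated data.

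The members and lists were chosen with earlier results of these data known. Every member probe set is named, and of each related list up to 4 genes, called genes before others and larger differences before smaller, by the brightest probe set of the gene. The genes most like the members are the 8 with the highest correlation, each by its most alike probe set. Alternatives were other filters, a trended robust prior, quantile normalization, 1 row a gene, a replicate block, single arrays left out, both E10 arrays numbered 1 left out, and Eif2s3y as a covariate. Some genes of the lists are not reported here.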

Additional observations from a re-analysis of the deposited data

How the results depend on the processing

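With 2 arrays a group, counts of calls moved with the processing while the direction of the stage differences of the genes did not. Over 507 runs in the 3 stage comparisons, by a gene's brightest probe set or the mean of its probe sets, 0 had the other sign. The runs reuse the same arrays and are not independent. Dimmer probe sets were not run singly. Dcx in 1418141_at and 1448974_at gave -0.48 and -0.38 in wild-type vesicles, against 0.80 in its brightest probe set. Of the 19 tested probe sets, the count past the threshold for stage over both genotypes (14) was 9 with Eif2s3y as a covariate and 9 to 14 with 1 array left out. For stage in labelled-null vesicles (3) it was 0 with the lowest 50% left out and 0 with 1 row a gene, by brightest probe set or by mean, 7 with a trended robust prior, 5 after quantile normalization, 9 without both E10 arrays numbered 1, and 0 to 8 with 1 array left out. For stage in wild-type vesicles (7) it was 11 without both E10 arrays numbered 1, 1 with Eif2s3y as a covariate and 0 to 10 with 1 array left out. The genotype and interaction counts stayed at 0 under every alternative run. The labels do not say that replicate numbers pair samples, and deviations of same-numbered arrays correlated at 0.68 between genotypes at E10, 0.05 at E10.5, -0.08 between stages in wild-type vesicles, -0.37 in labelled-null vesicles and -0.12 in 2B1 cells. With the replicate number as a block, 2 of the 12 probe sets passed in 2B1 cells, against 0 without it (Gap43 0.95, limma adjusted p = 0.00927; Elavl2 0.79, limma adjusted p = 0.0480), and 13 in place of 14 passed for stage over both genotypes. In 2B1 cells the block left fewer residual degrees of freedom than the 2 of the main fit. Shares over all probe sets are not given for the alternatives, so their counts have no background to be set against. With the numbers crossed, an alternative chosen after seeing the data, 8 passed for stage in labelled-null vesicles. Some genotype and interaction values changed sign, and not only those near 0. Without both E10 arrays numbered 1, Nefl gave -0.19, Stmn2 -0.22 and Stmn4 -0.05 over both stages. At E10 that run gave -0.94 for Nefm, -0.49 for Stmn4 and -0.25 for Elavl4. The main fit had given 0.22, 0.17 and 0.32 for them. With the mean of a gene's probe sets, Stmn2 gave -0.09 over both stages, Elavl2 0.09 at E10.5 and Dcx 0.24 for the interaction. With Eif2s3y, Nefl gave 0.47 at E10 and Tubb3 0.67 at E10.5. After quantile normalization Stmn4 gave -0.02 for the interaction. With 1 array left out, values that changed sign ranged as follows: for genotype over both stages, Elavl3 -0.11 to 0.10, Nefl -0.38 to 0.58, Stmn2 -0.17 to 0.34, Stmn4 -0.16 to 0.50 and Tubb3 -0.06 to 0.48; for genotype at E10.5, Elavl2 -0.33 to 0.11, Elavl3 -0.08 to 0.37 and Tubb3 -0.09 to 0.01; for genotype at E10, Elavl3 -0.30 to 0.04, Elavl4 -0.07 to 0.70, Nefl -1.38 to 1.03, Nefm -0.87 to 1.31, Stmn2 -1.0 to 0.29, Stmn4 -0.66 to 0.99 and Tubb3 -0.10 to 1.25; for the interaction, Dcx -0.17 to 0.02, Elavl4 -0.33 to 0.44, Nefl -0.75 to 1.65, Nefm -0.55 to 1.63, Stmn4 -0.82 to 0.83 and Tubb3 -1.30 to 0.05; in 2B1 cells, Elavl3 -0.28 to 0.10. The cause was not tested. Dim probe sets are compressed by RMA, and a gene whose probe sets disagree (Dcx, Elavl2) has no single value.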
